A study of Homo sapiens with 48 samples.

Results

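Transcription factors that pattern the embryo outside the HOX clusters were followed in 4 cell lines of the GCB class of diffuse large B cell lymphoma (DLBCL), a tumour of mature B cells. The members are the rows of the count table whose symbols belong to the PAX, SOX, GATA, DLX, LHX, IRX, TBX, MSX, OTX, NKX, FOXA, FOXC, FOXD, FOXF, FOXL, POU3F and POU4F families, or to the family of SIX4 and SIX5. PAX5, a factor that B cells need for their identity, and SOX4, a factor of B cell precursors, were left out by the rule. This gave 97 members of 37706 genes in the table: 16 SOX, 13 FOX, 13 TBX, 11 NKX, 8 LHX, 6 DLX, 6 PAX, 6 POU, 5 GATA, 5 IRX and 2 OTX genes, 5 of the family of SIX4 and SIX5, and MSX1. Of these, 53 had enough counts to be tested and 44 did not.

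RNA was sequenced from the established lines Oci-Ly18, Oci-Ly8, Oci-Ly7 and SUDHL6 after 6 days of treatment, with cells reseeded on day 3. In each line cells received both inhibitors (the combination), the EZH2 inhibitor GSK343 alone (EZH2i), the DOT1L inhibitor EPZ-5676 alone (DOT1Li; 1 label field spells it EZP-5676), or DMSO, the vehicle, with 3 libraries in each of the 16 groups. The sources used here give no doses. Since the labels do not call the replicates separate cultures, the p-values reflect the spread among these libraries alone, which may be technical. The 4 lines are separate cell lines and were not treated as replicates of each other.

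Most members are silent in mature B cells. EZH2 is the enzyme of Polycomb repressive complex 2 (PRC2), which trimethylates lysine 27 of histone H3 and keeps developmental regulators with CpG-rich promoters repressed outside the tissues that use them. DOT1L methylates lysine 79 of histone H3 in the bodies of transcribed genes. The families differ in their DNA-binding parts, with a homeodomain in SIX5, DLX, IRX, LHX, NKX, OTX, MSX and POU proteins, an HMG box in SOX proteins, a T-box in TBX proteins, zinc fingers in GATA proteins, a paired domain in PAX proteins and a forkhead in FOX proteins.

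The shallowest library, Oci-Ly8 DOT1Li replicate 3, held 5174269 counts, the deepest 18845074, and the median was 14499937. That library and Oci-Ly8 DMSO replicate 3 stood apart: their correlations with the other libraries of their groups averaged 0.9894 and 0.9896, the lowest of the 48 libraries, and their slopes of log2 CPM on log2 transcript length, 0.622 and 0.606, were the lowest too, against 0.681 or more in the others. Results in Oci-Ly8 are therefore given with and without both libraries where the count moved. Levels are in CPM, counts scaled by library size and TMM factor, and a fold change is on the log2 scale. A gene is called when the adjusted p of edgeR's quasi-likelihood test, over all 17749 genes tested, is under 0.05, and all adjusted p-values below come from that test. All 9 B cell markers examined, CD79A, MS4A1 and PAX5 among them, had a mean of at least 1 CPM in every group. Transcripts of the inhibited enzymes are no check of the labels, since both drugs act on the proteins.

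**Figure D1:**
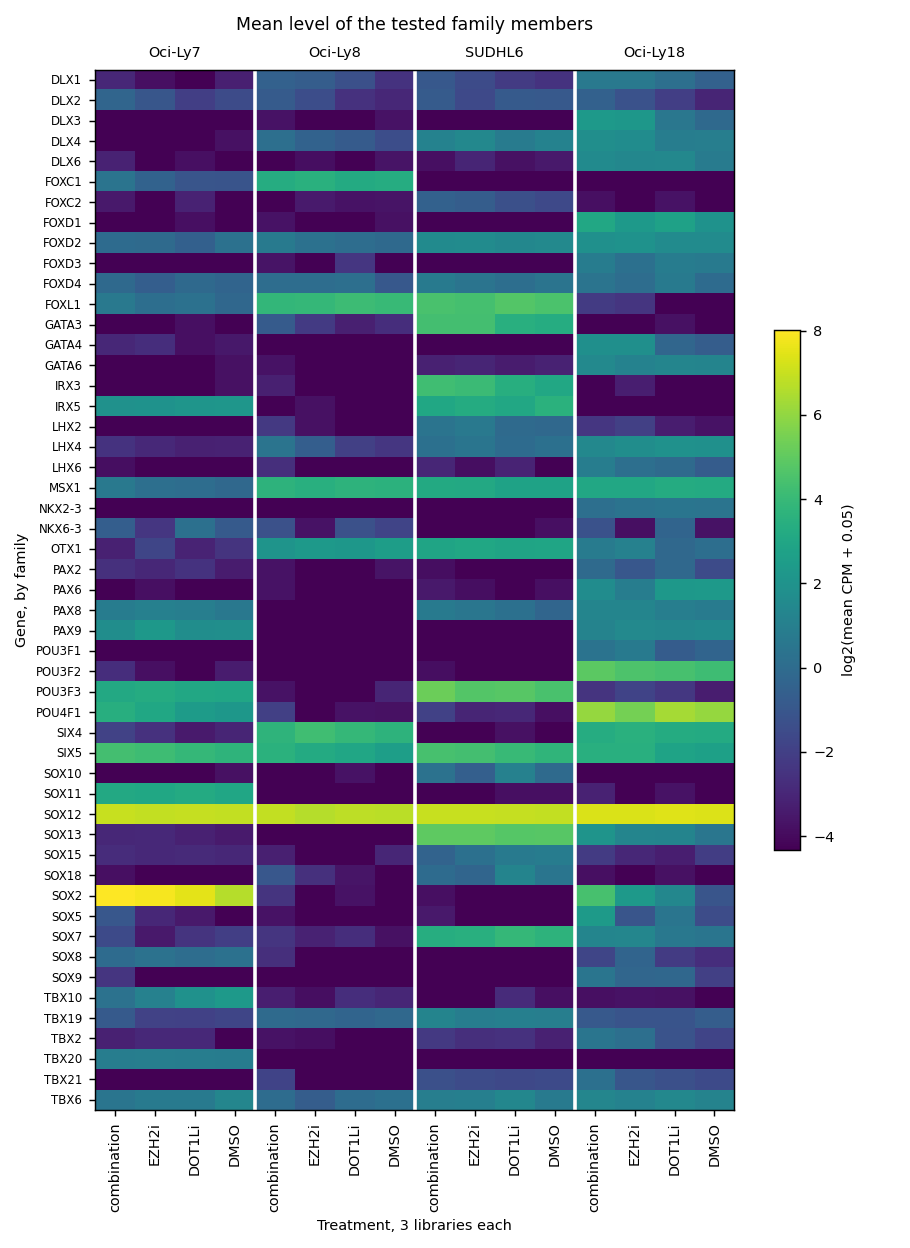
Mean level of 51 of the 53 tested members (rows, by family) in the 16 groups (columns; 4 treatments in each of 4 lines, 3 libraries each), as log2 of mean CPM plus 0.05. Most members were at or near 0 in at least 1 line, SOX12 was high in all 4, and rows such as SOX2, GATA3 and POU4F1 stood out in 1 or 2 lines.

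The untreated lines differed widely in which members they expressed. In DMSO, 60 of 97 members had a mean under 1 CPM in every line, 20 reached 1 CPM in 1 line, 11 in 2, 3 in 3 and 3 in all 4. Of the 37 members that reached 1 CPM somewhere, 19 had over 90% of their DMSO signal, summed over lines, in 1 line. The line with the highest DMSO level was SUDHL6 for 14 of the 37, Oci-Ly18 for 13, Oci-Ly7 for 7 and Oci-Ly8 for 3. Over all 48 libraries, 28 of the 97 members had at most 10 counts.

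SOX12, a SOXC protein close to SOX4, was the member with the highest mean over all libraries and had at least 554 reads in each. Per kilobase of exon its DMSO level was 25.6 CPM in Oci-Ly7, 22.9 CPM in Oci-Ly8, 25.8 CPM in SUDHL6 and 35.8 CPM in Oci-Ly18. SOX2, a factor of pluripotent cells and neural progenitors, reached 40.2 CPM per kilobase in Oci-Ly7 and only 0.172 in Oci-Ly18. POU4F1, a POU homeodomain factor of sensory neurons, was at 15 CPM per kilobase in Oci-Ly18. Its neural relatives were split between lines, with POU3F3 at 7.34 CPM per kilobase in SUDHL6 and POU3F2 at 3.7 in Oci-Ly18. GATA3, which directs T helper cells, was at 2.88 CPM per kilobase in SUDHL6.

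With the combination, 20 members rose and 1 fell in Oci-Ly18 and 13 rose and 1 fell in Oci-Ly8. In Oci-Ly7 8 rose and 2 fell, and in SUDHL6 7 rose and 2 fell, each of 53 tested. The test called 35% of all genes (21.1% higher and 14% lower) in Oci-Ly18 and 35% of all genes (18.1% higher and 16.9% lower) in Oci-Ly8. For Oci-Ly7 it was 29.8% of all genes (17.7% higher and 12.2% lower), and for SUDHL6 39.3% of all genes (22.6% higher and 16.8% lower). Of the 53, however, 6 had no reads in either group in Oci-Ly18, 13 in Oci-Ly8, 9 in Oci-Ly7 and 13 in SUDHL6, so they could not be called there, and shares of the 53 cannot be set against those of all genes. Among the members with reads, 42.6% rose in Oci-Ly18, 32.5% in Oci-Ly8, 18.2% in Oci-Ly7 and 17.5% in SUDHL6. The same shares among all genes with reads were 21.6%, 19.1%, 18.6% and 23.8% in that order of lines. The median log2 fold change was 0.75 over the members and 0.05 over all genes in Oci-Ly18, and the members' medians were 0.25 in Oci-Ly7, 0.08 in Oci-Ly8 and 0.06 in SUDHL6, against 0.03, 0 and 0.05 for all genes in those lines. Members without reads enter these medians as 0. Over the members with reads the medians were 0.83 in Oci-Ly18, 0.72 in Oci-Ly7, 1.37 in Oci-Ly8 and 0.32 in SUDHL6. For all genes with reads they were 0.06, 0.05, 0.01 and 0.08 in the same order. A member with 1 read enters these medians, often with a large fitted value. SOX2 in SUDHL6, with 1 read with the combination and none with DMSO, was at a log2 fold change of 1.72. In Oci-Ly8 GATA6, SOX5, PAX6 and TBX2 also had 1 read with the combination and none with DMSO. The medians therefore give no typical rise. A member had to pass a filter on low counts to be tested, so the counts of calls describe the 53 and not all 97. The filter took in all 16 groups, so a gene low with DMSO could pass through treated groups alone. SOX5, SOX9, TBX2 and TBX21, for example, averaged at most 0.31 CPM with DMSO in any line. The shares of rises are therefore partly built in by the filter, and their excess over all genes was not tested.

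Across lines, 39 of the 53 tested members were called with the combination, 33 higher and 6 lower. The share of all genes called in at least 1 line was not counted, and each line alone called 29.8% to 39.3% of all genes. No member was called in opposite directions in different lines. Of the 33, 22 rose in 1 line, 8 in 2, DLX1 and DLX2 in 3, and SIX5 in all 4. Each of the 6 falls was in 1 line: PAX6 in Oci-Ly18, OTX1 in Oci-Ly8, TBX10 and TBX6 in Oci-Ly7, and IRX5 and SOX15 in SUDHL6. Of the 54 calls, 35 held when any 1 of the 12 libraries of the line was left out, and the others are given with the libraries they rest on. The 3 libraries with the combination and the 3 with DMSO did not overlap in 50 of the 54 calls. The exceptions were OTX1 and TBX21 in Oci-Ly8, POU4F1 in SUDHL6 and DLX4 in Oci-Ly18. The calls were made from these same libraries, so the lack of overlap describes them and is no further evidence. Its share among all called genes was not counted.

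**Figure D2:**
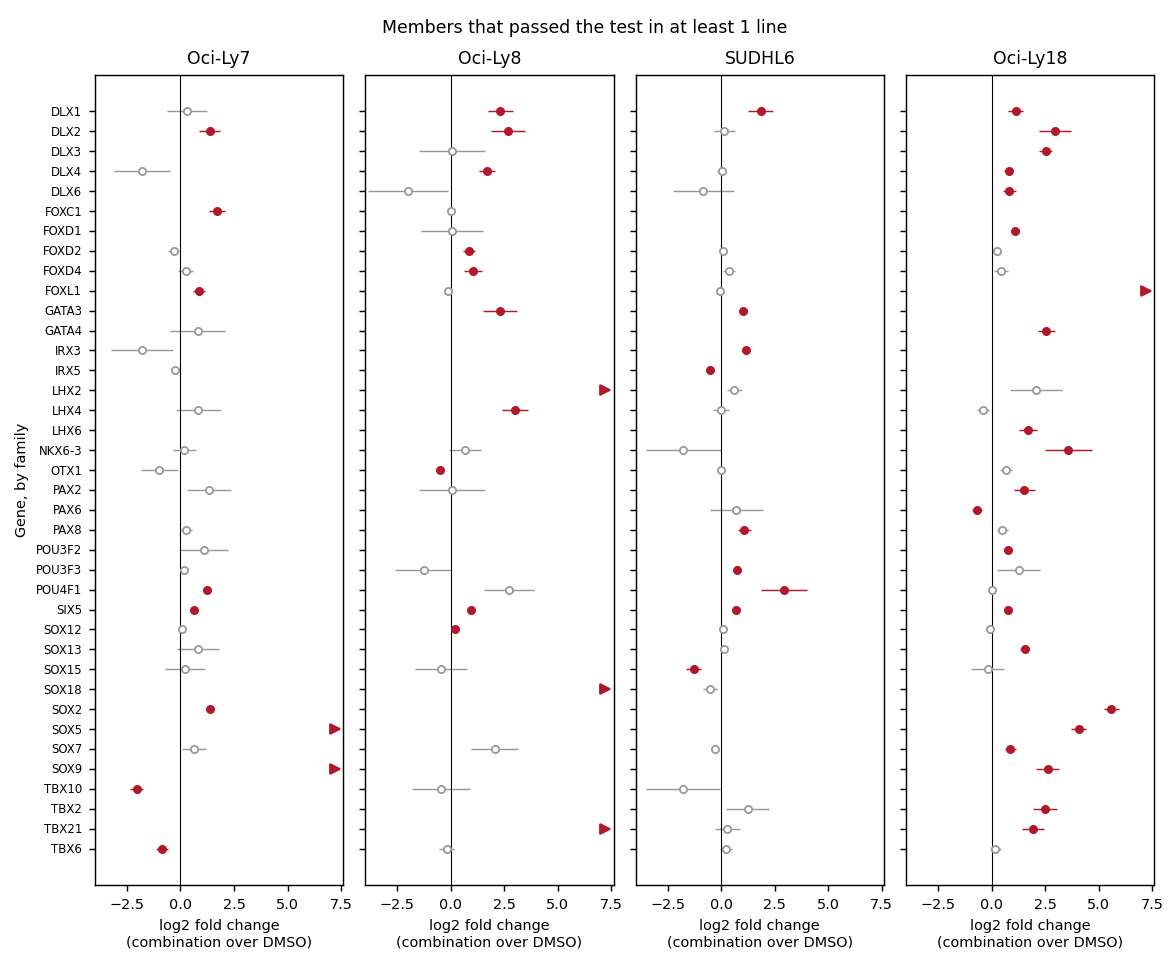
Log2 fold change of the combination over DMSO (x axis) for 38 of the 39 members called in at least 1 line, 1 panel a line; points are fitted values, bars 1 SE, filled red points passed the test and open grey points did not. A red arrow at the right edge marks a called member with 0 reads in all 3 DMSO libraries, for which no fold is drawn, and other members with 0 DMSO reads or an SE over 2 are left out. Filled points lie right of 0 except for 6, and Oci-Ly18 has the most.

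EZH2i alone raised 14 members and lowered 2 in Oci-Ly18, where the test called 22% of all genes (13% higher and 9.04% lower). It raised 4 in Oci-Ly8, beside 17% of all genes (9.04% higher and 7.94% lower), and 4 in SUDHL6, beside 22.7% of all genes (14% higher and 8.67% lower). In Oci-Ly7 it raised 3 and lowered 1, beside 13.7% of all genes (8.78% higher and 4.92% lower). These counts are of the 53, some of them without reads in a line. Among members with reads, EZH2i raised 31.1% in Oci-Ly18, 12.5% in Oci-Ly8, 11.1% in SUDHL6 and 7.69% in Oci-Ly7. The same shares among all genes with reads were 13.3%, 9.61%, 14.9% and 9.36%. The limit from the filter holds here too. DOT1Li alone raised 5 members in Oci-Ly18 (SOX2, SOX5, NKX6-3, SOX9 and FOXD1), beside 6.15% of all genes (4.03% higher and 2.12% lower). It raised SOX2 in Oci-Ly7, beside 2.9% of all genes (1.72% higher and 1.17% lower), and SOX10 in SUDHL6, beside 4.86% of all genes (2.76% higher and 2.11% lower). No member passed the test with DOT1Li in Oci-Ly8, where edgeR called 6.26% of all genes (3.53% higher and 2.73% lower). DESeq2 also called no member there, and 3 members had an unadjusted p under 0.05. Among members with reads, DOT1Li raised 10.6% in Oci-Ly18, 2.38% in Oci-Ly7, 2.7% in SUDHL6 and 0% in Oci-Ly8. Among all genes with reads it raised 4.14%, 1.85%, 2.95% and 3.78% in that order of lines. Without Oci-Ly18 DMSO replicate 1 or replicate 3 the 5 members in Oci-Ly18 numbered 3. In Oci-Ly7 the single member became 2 without DMSO replicate 1. In SUDHL6 libraries with the same replicate number deviated together, and with the replicate number as a block 3 members were called with DOT1Li.

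In Oci-Ly8 the 4 members called with EZH2i numbered 1 without DMSO replicate 3, and 1 without both libraries that stood apart. The 14 called with the combination there numbered 9 without DMSO replicate 1, and 14 without both of those libraries.

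Of the members with reads in DMSO, SOX2 and SOX5 gave the largest fitted rises with the combination in Oci-Ly18. SOX2 (ENSG00000181449; chromosome 3, 181711925 to 181714436, plus strand, GRCh38) had 13, 26.3 and 25.4 CPM with the combination, 4.92, 4.96 and 5.22 CPM with EZH2i, 3.28, 2.55 and 2 CPM with DOT1Li, against 0.163, 0.716 and 0.421 CPM with DMSO in Oci-Ly18. Every treated library lay above every DMSO library there, and the combination libraries lay above those of either inhibitor alone. The log2 fold changes over DMSO were 5.59 with the combination (1.01e-13), 3.51 with EZH2i (4.65e-07) and 2.58 with DOT1Li (0.00114), with the adjusted p in parentheses. The combination also stood above EZH2i alone (log2 fold change 2.08 ± 0.21 SE, adjusted p = 3.49e-08).

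In Oci-Ly7, where SOX2 was already high, the libraries had 262, 257 and 261 CPM with the combination, 228, 231 and 245 CPM with EZH2i, 144, 211 and 202 CPM with DOT1Li, against 100.4, 96.6 and 106 CPM with DMSO. The order of the groups was the one seen in Oci-Ly18, at a smaller scale, with log2 fold changes of 1.36 (adjusted p = 8.28e-09), 1.22 (adjusted p = 2.91e-07) and 0.88 (adjusted p = 0.000354) with the combination, EZH2i and DOT1Li. No library of Oci-Ly8 or SUDHL6 had more than 2 SOX2 reads. SOX2 lies within SOX2-OT, a long non-coding RNA gene on the same strand, whose level moved in the same direction. SOX2-OT averaged 9.55 ± 0.915 CPM with the combination, 0.54 ± 0.119 with EZH2i, 1.44 ± 0.688 with DOT1Li and 0.131 ± 0.0981 with DMSO in Oci-Ly18 (SD, n = 3), and rose with the combination in Oci-Ly7 too (log2 fold change 2.72 ± 0.18 SE, adjusted p = 2.19e-16). Of the 97 members, 10 overlap another annotated gene on the same strand and 41 on the other strand. The sources used here do not say how the authors' counting divided reads between such genes.

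SOX5, a SOXD protein of cartilage and neurons (ENSG00000134532; chromosome 12, 23529504 to 24562544, minus strand), had 85, 80 and 68 reads with the combination, 6, 5 and 6 reads with EZH2i, 22, 21 and 12 reads with DOT1Li, against 4, 5 and 3 reads with DMSO in Oci-Ly18. The combination libraries stood apart from the other 9, the DOT1Li libraries lay between, and the EZH2i libraries lay close to those of DMSO. The log2 fold change over DMSO was 4.06 ± 0.37 SE, adjusted p = 8.63e-11 with the combination and 2.12 ± 0.45 SE, adjusted p = 0.00179 with DOT1Li. EZH2i did not pass the test (log2 fold change 0.44 ± 0.56 SE, adjusted p = 0.651). Against EZH2i alone the combination gave 3.62 ± 0.35 SE, adjusted p = 2.35e-09. In Oci-Ly7 no DMSO library had a SOX5 read, against 4, 8 and 11 reads with the combination, at least 7.33-fold higher than a floor of 3 reads over the DMSO group (adjusted p = 6.49e-05).

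**Figure D3:**
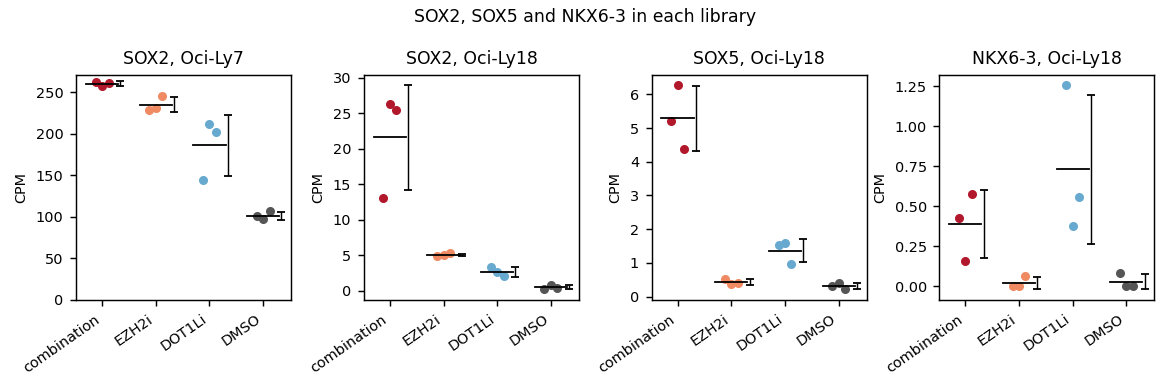
Level in CPM (y axis) of SOX2 in Oci-Ly7 and Oci-Ly18 and of SOX5 and NKX6-3 in Oci-Ly18, by treatment; points are libraries, lines are means and bars are SD (n = 3). SOX2 was lowest in DMSO in both lines, SOX5 was high with the combination, and NKX6-3 was at or near 0 with EZH2i and DMSO.

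A test for a departure from additive effects on the log2 scale, chosen after the SOX5 values were seen, called no member in any line. It called 0.361% of all genes (0.208% higher and 0.152% lower) in Oci-Ly18 and 0.101% of all genes (0.0507% higher and 0.0507% lower) in Oci-Ly8. In Oci-Ly7 it called 0.0507% of all genes (0.0394% higher and 0.0113% lower) and in SUDHL6 0.0225% of all genes (0% higher and 0.0225% lower). With an unadjusted p under 0.05, 4 members departed in Oci-Ly18, 5 in Oci-Ly8, 4 in Oci-Ly7 and 0 in SUDHL6. SOX5 in Oci-Ly18 was above the sum of both single effects by 1.5 ± 0.66 SE, adjusted p = 0.606. SOX2 in Oci-Ly7 was at -0.73 ± 0.20 SE, adjusted p = 0.287. DESeq2 called no member in any line either.

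Among the other SOX genes of Oci-Ly18, SOX13, the SOXD relative of SOX5, had 3.12, 4.56 and 4.56 CPM with the combination, against 1.3, 1.27 and 1.54 with DMSO (log2 fold change 1.55 ± 0.22 SE, adjusted p = 2.98e-07), and it did not pass the test in SUDHL6, where its DMSO mean was 28.3 ± 1.01 CPM. SOX9, which drives cartilage and testis formation, had 19, 20 and 19 reads with the combination and 2, 3 and 3 with DMSO (log2 fold change 2.63 ± 0.53 SE, adjusted p = 0.000331). SOX8, a SOXE relative of SOX9, rose with EZH2i to 10, 5 and 15 reads, against 2, 1 and 1 with DMSO (adjusted p = 0.0019), and had 2, 3 and 6 with the combination. SOX18, a SOXF factor of endothelium, had 5, 6 and 6 reads with the combination in Oci-Ly8 and none with DMSO, at least 5.93-fold higher than the same floor (adjusted p = 0.000106).

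SOX10, a neural crest factor of the SOXE group, had 22, 13 and 27 reads with the combination, 14, 11 and 9 reads with EZH2i, 26, 30 and 33 reads with DOT1Li, against 13, 19 and 12 reads with DMSO in SUDHL6. The DOT1Li libraries lay above all DMSO and EZH2i libraries (log2 fold change over DMSO 1.18 ± 0.33 SE, adjusted p = 0.0297). Without DOT1Li replicate 1, 2 or 3 or DMSO replicate 1 or 3 the call was lost (adjusted p up to 0.126). SOX10 lies opposite POLR2F, so without the strand setting of the counting their reads cannot be told apart, and POLR2F did not pass the test there (log2 fold change -0.12 ± 0.10 SE, adjusted p = 0.604). SOX15, the SOXG member, fell in SUDHL6 to 18, 8 and 11 reads with the combination, against 30, 26 and 29 with DMSO (log2 fold change -1.28 ± 0.35 SE, adjusted p = 0.00282); the gene MPDU1 overlaps it on the other strand. SOX12 rose by a small amount: with the combination in Oci-Ly8 its mean was 120.3 ± 3.89 CPM, against 106 ± 7.06 CPM with DMSO (log2 fold change 0.18 ± 0.06 SE, adjusted p = 0.0188). Without combination replicate 1 or 2 or DMSO replicate 2 or 3 the call was lost (adjusted p up to 0.0819).

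Of the 97 members 65 had a RefSeq promoter window of 300 bases, 250 before and 50 after the annotated start. The ratio of observed to expected CG dinucleotides had a median of 0.80 over these members, and 84.6% of them reached 0.6, against 0.79 and 71.2% over the 13817 other protein-coding genes with a window. The median number of CG dinucleotides was 24 in both. The windows of a pair of members that rose and a pair that fell are printed to show this range, with CG dinucleotides in capitals (RefSeq, GRCh38.p14, 5′ to 3′ on the strand of the gene).
SOX2: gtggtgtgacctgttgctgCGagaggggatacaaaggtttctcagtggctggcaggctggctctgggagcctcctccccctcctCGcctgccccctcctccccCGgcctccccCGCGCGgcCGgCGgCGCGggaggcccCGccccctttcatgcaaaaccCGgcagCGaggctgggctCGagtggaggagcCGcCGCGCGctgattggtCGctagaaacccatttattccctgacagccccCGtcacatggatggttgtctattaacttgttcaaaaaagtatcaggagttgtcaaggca
SOX5: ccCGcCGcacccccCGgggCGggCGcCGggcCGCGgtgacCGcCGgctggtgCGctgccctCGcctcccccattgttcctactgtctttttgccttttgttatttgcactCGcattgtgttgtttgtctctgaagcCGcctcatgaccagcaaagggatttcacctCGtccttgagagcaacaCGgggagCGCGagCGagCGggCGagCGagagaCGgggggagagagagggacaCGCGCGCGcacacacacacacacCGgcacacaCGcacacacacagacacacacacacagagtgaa
PAX6: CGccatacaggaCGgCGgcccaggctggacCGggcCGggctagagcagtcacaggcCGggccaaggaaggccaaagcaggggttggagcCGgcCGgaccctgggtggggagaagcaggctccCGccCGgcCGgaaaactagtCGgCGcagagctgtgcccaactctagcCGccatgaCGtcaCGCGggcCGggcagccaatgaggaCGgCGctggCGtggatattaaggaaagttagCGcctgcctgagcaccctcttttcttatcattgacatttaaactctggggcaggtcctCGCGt
TBX10: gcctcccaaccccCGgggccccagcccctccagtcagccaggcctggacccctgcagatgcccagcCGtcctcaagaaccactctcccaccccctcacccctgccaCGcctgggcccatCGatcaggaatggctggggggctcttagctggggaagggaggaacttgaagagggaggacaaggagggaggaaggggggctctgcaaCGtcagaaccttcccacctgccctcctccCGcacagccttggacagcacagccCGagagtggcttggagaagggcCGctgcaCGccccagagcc
The window of SOX2 is chr3:181711675-181711974 on the plus strand with 20 CG dinucleotides, and those on the minus strand are SOX5 at chr12:24562442-24562741 with 29, PAX6 at chr11:31817912-31818211 with 24 and TBX10 at chr11:67639714-67640013 with 9. TBX10 had an observed to expected ratio of 0.27, against 0.67 for SOX2, 0.96 for SOX5 and 0.77 for PAX6. CG content of 4 windows is a description and was not tested against the changes.

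POU4F1 (ENSG00000152192; chromosome 13, 78598362 to 78603552, minus strand) changed in opposite directions with EZH2i in the lines where it was expressed. In Oci-Ly7 it had 8.8, 11.8 and 11.6 CPM with the combination, 7.83, 8.09 and 8.23 CPM with EZH2i, 5.48, 5.84 and 5.23 CPM with DOT1Li, against 4.93, 3.73 and 4.92 CPM with DMSO. All combination and EZH2i libraries lay above all DMSO libraries. The log2 fold change was 1.25 ± 0.16 SE, adjusted p = 3.01e-08 with the combination and 0.84 ± 0.17 SE, adjusted p = 0.000273 with EZH2i. In Oci-Ly18, where its level was far higher, it had 67.1, 65.2 and 72.1 CPM with the combination, 38.6, 42.5 and 48.3 CPM with EZH2i, 76.4, 76.3 and 91.7 CPM with DOT1Li, against 63, 66.1 and 75.4 CPM with DMSO. There EZH2i was below every other library (log2 fold change over DMSO -0.66 ± 0.12 SE, adjusted p = 2.08e-05) while the combination did not pass the test against DMSO (SE 0.11, adjusted p = 1). The combination was higher than EZH2i alone (0.66 ± 0.12 SE, adjusted p = 5.37e-05). The EZH2i effect on POU4F1 differed between lines (adjusted p = 2.02e-06, F test over the 4 lines).

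POU3F3, a neural POU factor also used in kidney (chromosome 2, 104853287 to 104858574, plus strand), rose in SUDHL6 with the combination, to 37.6, 40.8 and 34.2 CPM, against 22.7, 23.9 and 20.8 with DMSO (log2 fold change 0.74 ± 0.12 SE, adjusted p = 2.81e-06). Its neural relative POU3F2 (chromosome 6, 98834574 to 98839458, plus strand) rose in Oci-Ly18, with 31.5, 26.6 and 32.8 CPM with the combination and 21, 14.8 and 18.4 with DMSO (log2 fold change 0.75 ± 0.15 SE, adjusted p = 0.000241). In both cases the combination and DMSO libraries did not overlap. In SUDHL6, POU4F1 had 6, 5 and 0 reads with the combination and 0, 0 and 1 with DMSO (adjusted p = 0.0256), a ratio of summed reads, scaled for depth, of 10.4 with an exact 95% counting interval of 1.51 to 448. Without combination replicate 1 or 2 or DMSO replicate 1 or 2 the call was lost (adjusted p up to 0.13).

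PAX6, a master factor of eye development (ENSG00000007372; chromosome 11, 31784779 to 31817961, minus strand), was lower with EZH2i in Oci-Ly18. It had 3.61, 2.91 and 2.83 CPM with the combination, 1.73, 2 and 1.76 CPM with EZH2i, 4.54, 4.8 and 5.03 CPM with DOT1Li, against 5.3, 5.49 and 4.28 CPM with DMSO. The EZH2i libraries lay below all others, the combination libraries lay between, and DOT1Li and DMSO overlapped. EZH2i gave a log2 fold change of -1.45 ± 0.24 SE, adjusted p = 2.26e-05. For the combination it was -0.68 ± 0.22 SE, adjusted p = 0.0161. Without combination replicate 2 or 3 or DMSO replicate 1 or 2 the call was lost (adjusted p up to 0.0694). ELP4 and the non-coding RNA PAUPAR overlap PAX6 on the other strand. PAX8, a thyroid and kidney factor, rose in SUDHL6 with 29, 20 and 34 reads with the combination, against 13, 13 and 11 with DMSO (log2 fold change 1.08 ± 0.29 SE, adjusted p = 0.00311).

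TBX10, a T-box gene (ENSG00000167800; chromosome 11, 67631303 to 67639763, minus strand) that reached 1 CPM with DMSO in Oci-Ly7 and in no other line, had 1.92, 0.836 and 0.887 CPM with the combination, 2.79, 1.69 and 1.71 CPM with EZH2i, 4.83, 3.34 and 3.14 CPM with DOT1Li, against 5.91, 4.01 and 5.46 CPM with DMSO. Combination and EZH2i libraries lay below all DMSO libraries, and DOT1Li overlapped DMSO. The log2 fold changes were -2.05 ± 0.31 SE, adjusted p = 9.94e-07 with the combination, -1.30 ± 0.29 SE, adjusted p = 0.00103 with EZH2i, and -0.43 ± 0.27 SE, adjusted p = 0.57 with DOT1Li, which did not pass the test. No annotated gene overlaps TBX10. TBX6, a factor of the early mesoderm, had 27, 20 and 21 reads with the combination and 46, 39 and 32 with DMSO in the same line (log2 fold change -0.87 ± 0.27 SE, adjusted p = 0.00995). Without DMSO replicate 1 the call was lost (adjusted p = 0.0958).

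Other T-box genes rose. TBX2, a repressor used in heart and limb, had 24, 15 and 21 reads with the combination in Oci-Ly18, 16, 10 and 18 with EZH2i and 5, 2 and 2 with DMSO (log2 fold change of the combination 2.49 ± 0.55 SE, adjusted p = 0.000376). TBX21, which encodes T-bet of T helper cells, had 22, 13 and 15 reads with the combination and 3, 6 and 2 with DMSO in Oci-Ly18 (log2 fold change 1.95 ± 0.51 SE, adjusted p = 0.00296). In Oci-Ly8 TBX21 had 3, 6 and 0 reads with the combination and none in the other 9 libraries (adjusted p = 0.0102 against DMSO). Without combination replicate 2 the call was lost (adjusted p = 0.085).

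**Figure D4:**
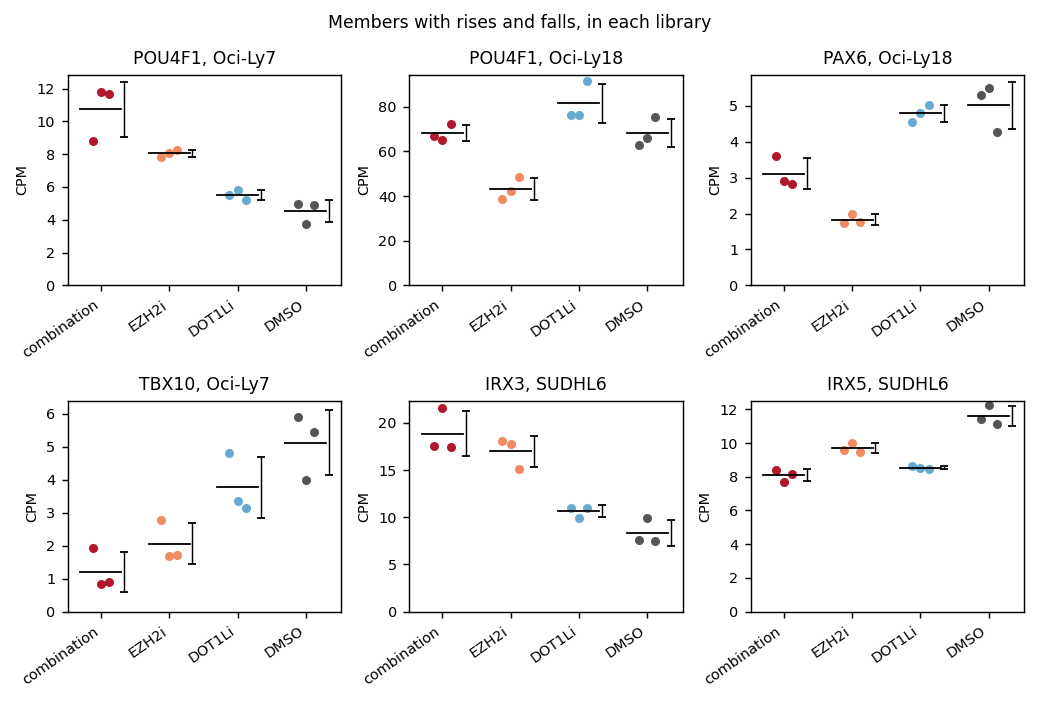
Level in CPM (y axis) of POU4F1 in Oci-Ly7 and Oci-Ly18, PAX6 in Oci-Ly18, TBX10 in Oci-Ly7, and IRX3 and IRX5 in SUDHL6, by treatment; points are libraries, lines are means and bars are SD (n = 3). POU4F1 and PAX6 were lowest with EZH2i in Oci-Ly18, TBX10 was lowest with the combination, and IRX3 and IRX5 moved in opposite directions with the combination.

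GATA3 (ENSG00000107485; chromosome 10, 8045378 to 8075198, plus strand) had 23.1, 23.4 and 12.9 CPM with the combination, 21.1, 22.9 and 16.9 CPM with EZH2i, 12.9, 10.3 and 9.68 CPM with DOT1Li, against 12, 9.24 and 8.48 CPM with DMSO in SUDHL6. Every combination and EZH2i library lay above every DMSO library, by a log2 fold change of 1.00 ± 0.18 SE, adjusted p = 3.11e-05 with the combination and 1.04 ± 0.18 SE, adjusted p = 4.74e-05 with EZH2i. DOT1Li did not pass the test (0.15 ± 0.19 SE, adjusted p = 0.805). A call in Oci-Ly8 rested on 3, 6 and 11 reads with the combination and 1, 1 and 2 with DMSO (adjusted p = 0.0254). Without combination replicate 3 or DMSO replicate 1 or 2 the call was lost (adjusted p up to 0.185). GATA4, a heart and gut factor, had 30, 53 and 71 reads with the combination, 35, 48 and 58 reads with EZH2i, 10, 14 and 8 reads with DOT1Li, against 10, 2 and 11 reads with DMSO in Oci-Ly18. The combination and EZH2i gave near-equal log2 fold changes of 2.56 ± 0.41 SE, adjusted p = 7.07e-06, and 2.55 ± 0.41 SE, adjusted p = 1.57e-05. The 9 T and NK cell markers summed to 6.37 to 8.31 CPM with the combination, 6.87 to 7.18 with EZH2i, 8.2 to 9.74 with DOT1Li and 6.38 to 6.65 with DMSO in SUDHL6, where GATA3 rose.

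The Iroquois genes IRX3 and IRX5, neural and heart patterning factors that lie on chromosome 16, moved apart in SUDHL6. IRX3 (chromosome 16, 54283304 to 54286787, minus strand) had 17.6, 21.6 and 17.4 CPM with the combination, 18, 17.8 and 15.1 CPM with EZH2i, 11, 9.92 and 11 CPM with DOT1Li, against 7.63, 9.95 and 7.53 CPM with DMSO. It rose with the combination (log2 fold change 1.17 ± 0.15 SE, adjusted p = 2.9e-07) and with EZH2i (1.02 ± 0.15 SE, adjusted p = 9.02e-06). IRX5 (chromosome 16, 54930865 to 54934485, plus strand) had 8.4, 7.71 and 8.19 CPM with the combination, 9.58, 10.0 and 9.46 CPM with EZH2i, 8.65, 8.53 and 8.47 CPM with DOT1Li, against 11.4, 12.3 and 11.1 CPM with DMSO. It fell with the combination (log2 fold change -0.52 ± 0.15 SE, adjusted p = 0.00677), and all treated libraries lay below all DMSO libraries. Neither single inhibitor passed the test for IRX5, with EZH2i at -0.26 ± 0.15 SE, adjusted p = 0.225, and DOT1Li at -0.44 ± 0.16 SE, adjusted p = 0.0989. IRX5 was also expressed in Oci-Ly7, where it did not pass the test (-0.25 ± 0.19 SE, adjusted p = 0.358).

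DLX genes, which pattern the forebrain, jaw and skin, lie in pairs: DLX1 and DLX2 are 9.76 kb apart on chromosome 2, and DLX4 and DLX3 15.05 kb apart on chromosome 17. DLX3, a skin and tooth factor found almost only in Oci-Ly18, had 60, 74 and 90 reads with the combination, 42, 76 and 72 reads with EZH2i, 25, 19 and 15 reads with DOT1Li, against 11, 11 and 12 reads with DMSO there. The combination and EZH2i libraries lay far above the others, at log2 fold changes of 2.53 ± 0.30 SE, adjusted p = 1.21e-07, and 2.41 ± 0.31 SE, adjusted p = 6.37e-07. Its neighbour DLX4, a placental factor, had 39, 39 and 71 reads with the combination, against 17, 31 and 27 with DMSO in that line (log2 fold change 0.80 ± 0.22 SE, adjusted p = 0.00442). Without combination replicate 3 the call was lost (adjusted p = 0.12). In Oci-Ly8 DLX4 rose to 15, 16 and 10 reads, against 4, 5 and 4 with DMSO (log2 fold change 1.69 ± 0.39 SE, adjusted p = 0.000642).

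DLX1 and DLX2, factors of forebrain interneurons, stayed under 2 CPM in every library. DLX2 had 6, 5 and 9 reads with the combination and 2, 0 and 1 with DMSO in Oci-Ly8 (adjusted p = 0.00649), a ratio of summed reads, scaled for depth, of 6.96 with an exact 95% counting interval of 2.06 to 36.6. In Oci-Ly18 it had 5, 12 and 12 reads with the combination, against 0, 0 and 3 with DMSO (adjusted p = 0.00131), a ratio of summed reads, scaled for depth, of 8.47 with an exact 95% counting interval of 2.62 to 43.4. Neither pair of groups overlapped. In Oci-Ly7 it had 14, 8 and 17 reads with the combination, against 4, 3 and 7 with DMSO (adjusted p = 0.0357). Without combination replicate 1 or 3 or DMSO replicate 1 or 2 the call was lost (adjusted p up to 0.189). DLX1 had 11, 7 and 7 reads with the combination and 3, 1 and 1 with DMSO in Oci-Ly8 (2.31 ± 0.60 SE, adjusted p = 0.00197). Its other calls with the combination were each lost without 1 library: in SUDHL6 the call was lost without DMSO replicate 2 (adjusted p = 0.0578), and in Oci-Ly18 the call was lost without DMSO replicate 1 (adjusted p = 0.0958).

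SIX5, a homeodomain factor whose gene neighbours DMPK, was the member called with the combination in all 4 lines (ENSG00000177045; chromosome 19, 45764785 to 45769252, minus strand). In Oci-Ly8 it had 12.3, 11.1 and 11.52 CPM with the combination, 10.3, 7.74 and 9.55 CPM with EZH2i, 6.08, 7.5 and 9.89 CPM with DOT1Li, against 6.15, 5.94 and 6.18 CPM with DMSO. Mean levels with the combination and with DMSO were 20.4 ± 3.09 and 13.2 ± 2.37 CPM in Oci-Ly7, 21.8 ± 1.95 and 13.4 ± 1.18 CPM in SUDHL6, and 11.1 ± 1.64 and 6.51 ± 0.337 CPM in Oci-Ly18 (SD, n = 3). No combination library overlapped DMSO in any line. The log2 fold changes were 0.64 in Oci-Ly7, 0.93 in Oci-Ly8, 0.70 in SUDHL6 and 0.77 in Oci-Ly18, with adjusted p of 0.000214, 1.43e-05, 3.64e-05 and 0.000175. With EZH2i alone it was also called in all 4 lines, although in Oci-Ly7 the call was lost without EZH2i replicate 1 or DMSO replicate 2 or 3 (adjusted p up to 0.151), and in Oci-Ly8 the call was lost without EZH2i replicate 1 (adjusted p = 0.0616).

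DMPK itself also rose with the combination in each line, by log2 fold changes of 0.60 in Oci-Ly7, 0.45 in Oci-Ly8, 0.36 in SUDHL6 and 0.35 in Oci-Ly18, and its part in the SIX5 counts was not tested. SIX4, a muscle and kidney factor of the same family, had 19.8, 18.4 and 17.6 CPM with EZH2i in Oci-Ly8 and 17.2, 9.91 and 10.1 with DMSO (log2 fold change 0.58 ± 0.17 SE, adjusted p = 0.014). Without EZH2i replicate 1 or DMSO replicate 2 or 3 the call was lost (adjusted p up to 0.104). With the combination SIX4 did not pass the test (0.08 ± 0.18 SE, adjusted p = 0.786).

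**Figure D5:**
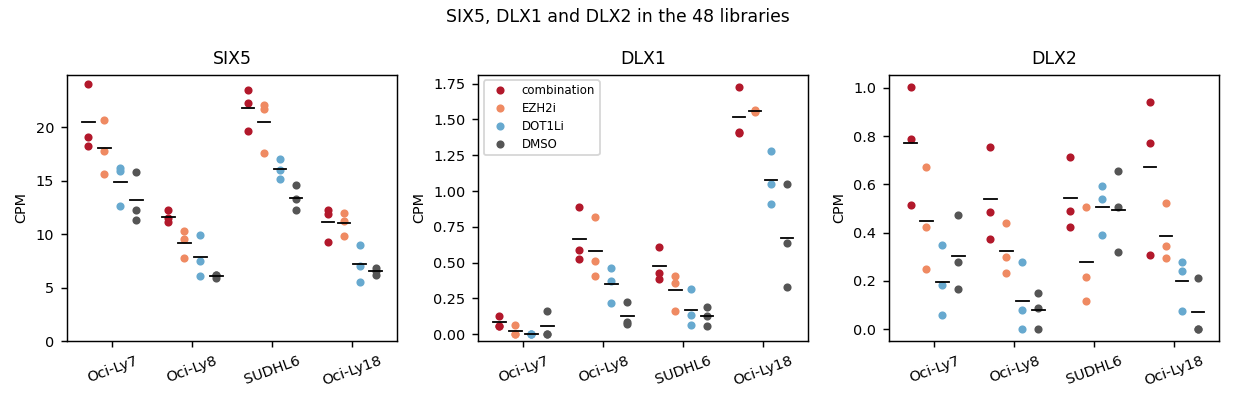
Level in CPM (y axis) of SIX5, DLX1 and DLX2 in the 4 lines (x axis), with the combination, EZH2i, DOT1Li and DMSO from left to right in each line; points are the 48 libraries and lines are means of 3. For SIX5 the combination libraries lay above those of DMSO in each line, while DLX1 and DLX2 stayed below 2 CPM throughout.

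LHX4, a pituitary and motor neuron factor, rose in Oci-Ly8 with 14, 15 and 19 reads with the combination, against 3, 3 and 0 with DMSO (log2 fold change 3.00 ± 0.60 SE, adjusted p = 7.58e-05), although it was higher in Oci-Ly18, where it did not pass the test (-0.41 ± 0.28 SE, adjusted p = 0.267). With EZH2i alone it had 3, 8 and 17 reads in Oci-Ly8 (adjusted p = 0.0355). Without EZH2i replicate 2 or 3 or DMSO replicate 3 the call was lost (adjusted p up to 0.29). LHX6, a factor of cortical interneurons, had 23, 26 and 32 reads with the combination and 3, 7 and 12 with DMSO in Oci-Ly18 (log2 fold change 1.69 ± 0.41 SE, adjusted p = 0.00146). OTX1, a forebrain factor, had 4.92, 4.06 and 3.28 CPM with the combination and 7.56, 4.53 and 5.41 with DMSO in Oci-Ly8 (log2 fold change -0.51 ± 0.19 SE, adjusted p = 0.033). Without combination replicate 2 or 3 or DMSO replicate 1 the call was lost (adjusted p up to 0.326).

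NKX6-3, a factor of the stomach and hindbrain (ENSG00000165066; chromosome 8, 41645177 to 41650817, minus strand), had 7, 2 and 9 reads with the combination, 0, 0 and 1 reads with EZH2i, 18, 5 and 7 reads with DOT1Li, against 1, 0 and 0 reads with DMSO in Oci-Ly18. Against the 1 read with DMSO, DOT1Li gave a ratio of summed reads, scaled for depth, of 29.2 with an exact 95% counting interval of 4.86 to 1190.0 (adjusted p = 0.00185), and the combination gave a ratio of summed reads, scaled for depth, of 15.8 with an exact 95% counting interval of 2.49 to 657 (adjusted p = 0.00856), while the EZH2i libraries held no more than 1 read. Oci-Ly7 had 13, 8 and 9 reads with the combination, 3, 3 and 1 reads with EZH2i, 16, 26 and 12 reads with DOT1Li, against 5, 14 and 6 reads with DMSO. No comparison of NKX6-3 with DMSO passed the test in Oci-Ly7, where DOT1Li was at 1.10 ± 0.47 SE, adjusted p = 0.272, and EZH2i at -1.81 ± 0.69 SE, adjusted p = 0.0759.

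Of the forkhead genes, FOXC1, a mesenchyme and eye factor, rose in Oci-Ly7 to 29, 15 and 22 reads with the combination, against 4, 6 and 9 with DMSO (log2 fold change 1.69 ± 0.37 SE, adjusted p = 0.000601). In Oci-Ly8, where FOXC1 averaged 9.99 ± 2.1 CPM with DMSO, it did not pass the test (0.00 ± 0.18 SE, adjusted p = 1). FOXL1, a gut mesenchyme factor, showed the same split: it was high in SUDHL6 (22.1 ± 1.66 CPM with the combination and 23.1 ± 2.76 with DMSO) and did not pass the test there, while in Oci-Ly18 it had 3, 1 and 4 reads with the combination and none with DMSO, a ratio of at least 2.26 over the floor (adjusted p = 0.00908). FOXD1, a factor of kidney stroma, had 7.35, 8.8 and 8.67 CPM with the combination, 4.74, 5.19 and 5.35 CPM with EZH2i, 6.01, 7.21 and 6.71 CPM with DOT1Li, against 3.18, 4.54 and 3.79 CPM with DMSO in Oci-Ly18 (log2 fold change of the combination 1.10 ± 0.20 SE, adjusted p = 4.1e-05). With DOT1Li it was at 0.79 ± 0.20 SE, adjusted p = 0.013. Without DOT1Li replicate 2 or DMSO replicate 1 or 3 the call was lost (adjusted p up to 0.0879).

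FOXD2 and FOXD4, forkhead genes of the FOXD group, did not exceed 4.29 and 2.03 CPM in any library. In Oci-Ly8 FOXD2 had 21, 19 and 20 reads with the combination and 8, 17 and 10 with DMSO (adjusted p = 0.0187). Without combination replicate 1 or 3 or DMSO replicate 1 the call was lost (adjusted p up to 0.136). For FOXD4, with 10, 14 and 14 reads with the combination and 2, 10 and 7 with DMSO (adjusted p = 0.0454), the call was lost without combination replicate 2 or 3 or DMSO replicate 1 or 3 (adjusted p up to 0.272). The remaining combination calls were DLX6, PAX2 and SOX7 in Oci-Ly18, LHX2 in Oci-Ly8, and FOXL1 and SOX9 in Oci-Ly7, named after their values were seen, and each was lost without at least 1 library. In Oci-Ly18, for DLX6 the call was lost without combination replicate 3 or DMSO replicate 1 or 3 (adjusted p up to 0.244), for PAX2 the call was lost without combination replicate 2 or DMSO replicate 1 (adjusted p up to 0.0708), and for SOX7 the call was lost without combination replicate 3 or DMSO replicate 3 (adjusted p up to 0.0704). In Oci-Ly8, for LHX2 the call was lost without DMSO replicate 1, 2 or 3 (adjusted p up to 0.0665). In Oci-Ly7, for FOXL1 the call was lost without combination replicate 2 or DMSO replicate 1 or 3 (adjusted p up to 0.161), and for SOX9 the call was lost without combination replicate 3 or DMSO replicate 1, 2 or 3 (adjusted p up to 0.131).

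Other settings ended calls over DMSO that also depended on single libraries. Without a filter on low counts, FOXD2, FOXD4, OTX1 and SOX12 with the combination in Oci-Ly8 and SOX10 with DOT1Li in SUDHL6 were lost. OTX1 was also lost with DESeq2 size factors. With Oci-Ly8 fitted alone those 4 members, LHX2 and TBX21 were lost for the combination, and LHX4, SIX4 and SIX5 for EZH2i. Without both Oci-Ly8 libraries that stood apart, LHX2 was lost for the combination and LHX4, SIX4 and DLX1 for EZH2i. With the line fitted alone SOX9 in Oci-Ly7 and POU4F1 in SUDHL6 were lost for the combination. DESeq2 did not call DLX2 with the combination in Oci-Ly7 or SOX9 with DOT1Li in Oci-Ly18.

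Compared with EZH2i alone, the combination gave 7 higher and 1 lower member in Oci-Ly18, beside 12.8% of all genes (7.69% higher and 5.1% lower). In Oci-Ly8 5 were higher and 1 was lower, beside 17.4% of all genes (9.82% higher and 7.61% lower). In Oci-Ly7 2 were higher, beside 8.83% of all genes (5.23% higher and 3.6% lower), and in SUDHL6 1 was higher, beside 7.12% of all genes (3.43% higher and 3.69% lower). Among members with reads, 14.6% were higher in Oci-Ly18, 12.2% in Oci-Ly8, 4.88% in Oci-Ly7 and 2.7% in SUDHL6. The same shares among all genes with reads were 7.86%, 10.3%, 5.49% and 3.6%. SOX2, SOX5 and POU4F1 in Oci-Ly18 and SOX12 in Oci-Ly8 kept this call without any 1 library of their line, although SOX12 lost it when Oci-Ly8 was fitted alone. The 8 members in Oci-Ly18 numbered 4 without EZH2i replicate 1 or combination replicate 3. The 6 in Oci-Ly8 numbered 2 without EZH2i replicate 1 or 3, 3 without combination replicate 1 and 1 without combination replicate 2. SOX12 averaged 120.3 ± 3.89 CPM with the combination and 101 ± 1.86 CPM with EZH2i (log2 fold change 0.26 ± 0.06 SE, adjusted p = 0.00203). POU3F3 in SUDHL6 was the member called there (0.50 ± 0.12 SE, adjusted p = 0.00547). Without combination replicate 2 or EZH2i replicate 3 the call was lost (adjusted p up to 0.0524). In Oci-Ly7 the members were SOX5, for which the call was lost without combination replicate 2 or 3 or EZH2i replicate 2 or 3 (adjusted p up to 0.12), and SOX7, for which the call was lost without combination replicate 3 or EZH2i replicate 1 or 2 (adjusted p up to 0.125).

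Averaged over the 4 lines, 14 members (26.4% of the 53) rose with the combination and none fell, beside 46.4% of all genes (25.7% higher and 20.7% lower). With EZH2i 3 rose (SIX5, FOXL1 and DLX2; 5.66%), beside 28.2% of all genes (15.7% higher and 12.5% lower). None was called with DOT1Li, beside 10.3% of all genes (5.08% higher and 5.19% lower). Against DOT1Li alone the combination raised 7 members, beside 35.2% of all genes (19.4% higher and 15.8% lower). Against EZH2i it raised 4 and lowered 1, OTX1, beside 25% of all genes (12.8% higher and 12.2% lower). Only 29 of the 53 members had reads in the compared groups of every line for the combination, against 88.5% of all genes. It was 21 against 86.8% for EZH2i and 23 against 85.7% for DOT1Li. For the combination it was 26 against 89% in the comparison with EZH2i, and 27 against 88.6% with DOT1Li. The averages therefore cover the members less well than the lines, and shares of the 53 cannot be set against those of all genes. SIX5 gave the smallest adjusted p with the combination (log2 fold change 0.76 ± 0.08 SE, adjusted p = 7.35e-12). SOX2 was also called (3.18 ± 1.30 SE, adjusted p = 0.0454), but the call was lost when any 1 of 21 libraries was left out of the 48. The 3 members called with EZH2i numbered 1 without Oci-Ly18 DMSO replicate 1 or EZH2i replicate 3, and the 5 called between the combination and EZH2i numbered 3 without Oci-Ly7 EZH2i replicate 2. The average DOT1Li count of 0 goes with 3 members at an unadjusted p under 0.05, and DESeq2 called 1.

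The effect of the combination differed between lines for 14 of the 53 members, that of EZH2i for 6 and that of DOT1Li for none, against 43.8%, 24% and 5.14% of all genes. Members with reads in only 1 line, such as TBX20, could not be called here. The counts of members therefore cannot be set against those shares. SOX2, POU4F1 and SOX13 gave the smallest adjusted p for the combination. Without Oci-Ly18 DMSO replicate 1 or replicate 2 the 6 members that differed with EZH2i numbered 3.

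A list of 82 other developmental transcription factors (TLX, NEUROG, ZIC, TWIST, PITX and similar genes) had 25 tested genes. With the combination 15 of these rose and none fell in Oci-Ly18, 4 rose and 2 fell in Oci-Ly8, 4 rose in Oci-Ly7 and 5 rose in SUDHL6. The rises were 60% of the tested list in Oci-Ly18, 16% each in Oci-Ly8 and Oci-Ly7, and 20% in SUDHL6, beside 21.1%, 18.1%, 17.7% and 22.6% of all genes. All 25 had reads in Oci-Ly18, against 14 in Oci-Ly8, 16 in Oci-Ly7 and 14 in SUDHL6, and the rises were 28.6%, 25% and 35.7% of those with reads in these 3 lines. With EZH2i 12 rose in Oci-Ly18, 1 in Oci-Ly8, 2 in Oci-Ly7 and 4 in SUDHL6, which is 48%, 4%, 8% and 16% of the list, beside 13%, 9.04%, 8.78% and 14% of all genes. Among those with reads it was 8.33% in Oci-Ly8, 11.8% in Oci-Ly7 and 26.7% in SUDHL6. For all genes with reads it was 9.61%, 9.36% and 14.9%. The median log2 fold change of the list with the combination was 0.68 in Oci-Ly18, against 0.05 for all genes there. The filter was the one used for the members, so listed genes low with DMSO could pass through treated groups alone. These shares and this median are therefore partly built in by the filter, and their excess over all genes was not tested. Of 13 PRC2 genes, all tested, the combination raised 3 and lowered 6 in Oci-Ly18, raised 3 and lowered 4 in Oci-Ly8, raised 4 and lowered 3 in Oci-Ly7, and raised 2 and lowered 7 in SUDHL6. In those lines 14%, 16.9%, 12.2% and 16.8% of all genes fell.

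Markers of other tissues moved with some of these changes in every line, and their part in the results was not tested. In Oci-Ly18 7 neuronal markers summed to 78.4 to 93.7 CPM with the combination, 42.2 to 47.5 with EZH2i, 71.8 to 76.2 with DOT1Li and 44.8 to 47.1 with DMSO, with 3 of 7 at 1 CPM or more in each group. Of the defining neuronal markers, RBFOX3 and NEFL were at 0 in every group, and STMN2 was at 0 with EZH2i and DMSO but not with the combination or DOT1Li. The 9 fibroblast and endothelial markers summed to 14.5 to 15.4 CPM with the combination, 4.49 to 5.48 with EZH2i, 11.7 to 14.4 with DOT1Li and 4.98 to 5.49 with DMSO. LUM was at 0 in every group, COL3A1 was at 0 in each except the combination, DCN was at 0 with DOT1Li and DMSO, and CDH5 was at 0 in each except DMSO. For the 6 epithelial markers in the table the sums were 9.25 to 13, 6.72 to 8.22, 4.23 to 5.93 and 2.71 to 3.59 CPM in the same order of groups. EPCAM was at 0 in every group, CDH1 was at 0 with DMSO alone, and KRT19 was at 0 with the combination and DOT1Li. In the other lines the fibroblast and endothelial sums with the combination were 67.2 to 82.8 CPM against 33.1 to 50.3 with DMSO in Oci-Ly8, 103 to 121 against 72.1 to 78 in Oci-Ly7 and 23.8 to 31.6 against 8.55 to 9.92 in SUDHL6. The neuronal sums were at least 17.1 CPM with the combination against 4.55 to 6.38 with DMSO in Oci-Ly8, 13.8 to 17.2 against 8.76 to 10.4 in Oci-Ly7 and, lower with the combination, 73.3 to 92 against 106 to 131 in SUDHL6. Epithelial sums stayed at or below 1.69 CPM in every group of these 3 lines. In Oci-Ly18 7 neural crest and muscle markers summed to 1.59 to 2.28 CPM with the combination against 1.47 to 2.39 with DMSO. Their sums were 1.65 to 2.35 against 1.77 to 2.59 in Oci-Ly8 and 6.88 to 12.9 against 4.23 to 5.93 in Oci-Ly7. In SUDHL6 they were 5.44 to 7.35 against 2.23 to 3.58. MYOD1 and MYOG were at 0 with the combination in every line. The 9 B cell markers in Oci-Ly18 summed to 1967 to 2028 CPM with the combination and 2324 to 2359 CPM with DMSO. In Oci-Ly7 they summed to 2609 to 2850 CPM against 3036 to 3082 with DMSO. For Oci-Ly8 the sums were 1960 to 2125 against 1518 to 1968. In SUDHL6 they were higher with the combination, at 2617.3 to 2676.5 against 2108.6 to 2253.1. In bulk RNA, fewer cells with a transcript and less transcript per cell cannot be told apart.

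Some members without reads in DMSO had reads with the combination, and the share of all such silent genes that gained reads was not counted. Members with reads in all 3 libraries numbered 52 with the combination and 41 with DMSO in Oci-Ly18. The numbers were 36 and 24 in Oci-Ly7, 27 and 17 in Oci-Ly8, and 29 and 29 in SUDHL6. In Oci-Ly18, 40 of 97 members had no read in the 3 DMSO libraries, and only FOXL1 had reads in all 3 combination libraries. The corresponding counts were 4 of 52 in Oci-Ly7 (SOX5, SOX9 and TBX1 among them), 4 of 57 in Oci-Ly8 (GATA2, LHX2, SOX18 and SOX2) and 0 of 50 in SUDHL6, and none of these 9 reached a mean of 1 CPM. Members with no read in a line's 3 DMSO libraries are covered only down to a floor of 3 reads, about 0.0632 CPM in Oci-Ly7, which covers counting error only.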

How the data were processed

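The deposited table holds whole-number read counts per gene, 1 column a library. Per the submitters' processing notes, the authors used STAR and DESeq2 with GRCh38 (hg38); which program counted the reads, with what strand setting and annotation, is not given in the sources used here. Per the labels' protocols the libraries were poly(A)-selected and stranded. Oci-Ly8 stands in 2 places of the growth protocol and Oci-Ly7 in none, so lines were taken from each sample's own labels. Samples were grouped by cell line and treatment from the labels. All 48 columns matched a sample.

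Genes were filtered with filterByExpr on the 16 groups and scaled by TMM, and edgeR 4.0.16 (R 4.3.3) was fitted to all 48 libraries with 1 coefficient a group and 32 residual degrees of freedom. Its robust quasi-likelihood test was adjusted by Benjamini-Hochberg over 17749 genes, and the SE is the log2 fold change divided by the square root of F. CPM use TMM-scaled library sizes and no prior count. Levels per kilobase use GENCODE 29 exon lengths. Limits from a count of 0 and counting intervals at 95% cover counting error only. On counts simulated for Oci-Ly18 with the combination over 17749 genes, 43 of 50 genes raised by a log2 change of 1 were recovered. Of those lowered by 1, 39 of 50 were recovered, with 50 of 50 and 44 of 50 for changes of 2 and -2. Among the unchanged genes 14 were called. The changed genes were drawn above a minimum of expected reads with DMSO, and the spread was an assumed one. These rates therefore do not cover members with few DMSO reads.

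The members and lists were chosen with earlier results of these data known. The genes named were the 6 members with the highest mean, up to 8 called a line with the combination and 3 with each single inhibitor, up to 8 in each average, up to 10 called lower, and up to 3 a treatment for differences between lines; others are said to be chosen after their values were seen or are given for a neighbour, a relative or another line. No label says that replicate numbers mark a shared day or batch. Deviations from the group means correlated over 0.1 in all 3 same-numbered pairs for SUDHL6 (0.101 to 0.221 over its comparisons with DMSO). The same held for DOT1Li against DMSO in Oci-Ly8 (0.36 to 0.592) and Oci-Ly18 (0.105 to 0.161). The main fit did not use the number as pairing, there or elsewhere, so its p-values are unpaired. The replicate block was an alternative, fitted in all 4 lines at once. Replicate pairs differed by more than sampling noise (lowest chi-square per degree of freedom 1.87). A few named items are not reported here. Alternatives were DESeq2 1.42.0, its size factors, no filter, a filter on the mean, a replicate block, each line alone, the average over lines with counts, and leaving out libraries.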

Additional observations from a re-analysis of the deposited data

Results flagged for a closer look

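Effects that differed between the 4 lines were looked at again, by an F test of the difference itself in edgeR with adjustment over all genes. With the combination 14 of the 53 tested members differed, beside 43.8% of all genes. Members with reads in only 1 line could not be called, so the counts here cannot be set against the shares of all genes. SOX2 gave an adjusted p of 2.95e-08, with log2 fold changes of 5.59 in Oci-Ly18 and 1.36 in Oci-Ly7. POU4F1 gave 2.97e-06, with 1.25 in Oci-Ly7 (adjusted p = 3.01e-08), while Oci-Ly18 did not pass the test (adjusted p = 1). SOX13 gave 0.000133, with 1.55 in Oci-Ly18 and 0.12 in SUDHL6.

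With EZH2i 6 members differed, beside 24% of all genes. POU4F1 gave an adjusted p of 2.02e-06, higher than DMSO in 3 of 3 libraries of Oci-Ly7 and lower in 3 of 3 of Oci-Ly18. SOX2 gave 0.0085, with 3.51 in Oci-Ly18 and 1.22 in Oci-Ly7. SOX7, a SOXF factor of endothelium, gave 0.00392, with 0.93 in Oci-Ly18 and -0.20 in SUDHL6, where it did not pass the test (adjusted p = 0.371 by edgeR). The Oci-Ly18 call was lost without DMSO replicate 3 of that line (adjusted p = 0.0761 by edgeR).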

How the results depend on the processing

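None of the called values reversed under any alternative. Of 135 called values, 134 kept their call with DESeq2 size factors, 120 without a filter, 128 without both Oci-Ly8 libraries that stood apart and 126 of 134 with DESeq2. With each line fitted alone 87 of 106 did, and with a filter on the mean all 93 that stayed tested. With a replicate block 134 of 135 were kept, and SOX2 in the average of the combination was lost. Every library was closest to its own replicate number, a hint from the data and not the design.

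Counts of members called moved as follows. With the block, DOT1Li in SUDHL6 gave 3, the combination against EZH2i in Oci-Ly7 gave 5 and the average of DOT1Li gave 1. Without both Oci-Ly8 libraries, EZH2i in Oci-Ly8 gave 1 and the combination against EZH2i in Oci-Ly7 gave 4. With each line alone, EZH2i gave 1 in Oci-Ly8 and 8 in SUDHL6, the combination gave 8 in Oci-Ly8, DOT1Li gave 3 in SUDHL6, and the combination against EZH2i gave 0 in Oci-Ly8 and 2 in SUDHL6. With the filter on the mean, which left fewer members tested, the combination gave 8 in Oci-Ly8, 13 in Oci-Ly18 and 9 in the average, DOT1Li gave 0 in SUDHL6 and 3 in Oci-Ly18, and the combination against EZH2i gave 3 in Oci-Ly8. Without a filter, DOT1Li gave 0 in SUDHL6, the combination against EZH2i gave 4 in Oci-Ly7, the departure from additive effects gave 1 in Oci-Ly7, and the DOT1Li difference between lines gave 1. With DESeq2, DOT1Li gave 0 in SUDHL6 and 1 in the average, and the average of the combination against EZH2i gave 8. Over lines with counts the averages gave 1 for DOT1Li, 9 for EZH2i, 22 for the combination, 11 for the combination against EZH2i and 13 for the combination against DOT1Li. Apart from the filter and the left-out libraries, the cause was not tested. DESeq2 was not run for the differences between lines.

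Leaving out 1 library gave these ranges. DOT1Li gave 1 to 2 in Oci-Ly7, 0 to 1 in Oci-Ly8 (1 without DMSO replicate 1 or 2), 0 to 1 in SUDHL6 and 3 to 6 in Oci-Ly18. EZH2i gave 3 to 5, 1 to 5, 3 to 4 and 12 to 16 in those lines, and the combination gave 7 to 11, 9 to 14, 8 to 10 and 17 to 21. The combination against EZH2i gave 0 to 4 in Oci-Ly7 (4 without combination replicate 1, 1 or 0 without any of the other 5), 1 to 6 in Oci-Ly8, 0 to 1 in SUDHL6 (0 without EZH2i replicate 3 or combination replicate 2) and 4 to 7 in Oci-Ly18. The departure in Oci-Ly7 gave 0 to 1. The averages gave 0 to 1 for DOT1Li, 1 to 4 for EZH2i, 11 to 15 for the combination, 3 to 7 against EZH2i and 6 to 8 against DOT1Li. The differences between lines gave 0 to 1 for DOT1Li, 3 to 7 for EZH2i and 10 to 14 for the combination. Members with few reads are limited by depth: none of the 44 untested members had more than 89 reads over 48 libraries.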

Other observations

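Some members were high in 1 line and did not pass the test there with any treatment; they were chosen after their values were seen. SOX11, a SOXC relative of SOX4 and SOX12 known from mantle cell lymphoma, averaged 8.74 ± 0.426 CPM with the combination and 7.96 ± 1.71 CPM with DMSO in Oci-Ly7 (SD, n = 3). TBX20, a heart factor, averaged 1.85 ± 0.188 CPM with the combination and 1.77 ± 0.11 CPM with DMSO in Oci-Ly7, and had no read with the combination or DMSO in the other 3 lines.

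The B cell factors left out by the rule were expressed in every group. PAX5 averaged 446 ± 21.2, 311 ± 19.5, 189.9 ± 10.6 and 867 ± 45.7 CPM with the combination in Oci-Ly18, Oci-Ly8, Oci-Ly7 and SUDHL6, against 514 ± 26.4, 233 ± 57.1, 194 ± 6.56 and 818 ± 38.6 CPM with DMSO (SD, n = 3). SOX4 averaged 13.6 ± 1.02, 227 ± 11.6, 252 ± 17.5 and 392 ± 38.6 CPM with the combination in the same lines, against 26 ± 0.249, 132 ± 33.8, 145 ± 6.71 and 338 ± 53.4 CPM with DMSO. The SOX4 groups lay apart in opposite directions in Oci-Ly7 and Oci-Ly18, a difference that was not tested here.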
